A study of Mus musculus with 2 samples.

Results

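10 genes that encode secreted activators of WNT signaling were followed across 2 fracture calluses: *Wnt2b*, *Wnt4*, *Wnt5a*, *Wnt5b*, *Wnt7b*, *Wnt9a*, *Wnt10b*, *Wnt11*, *Wnt16* and the R-spondin *Rspo3*. They were chosen by symbol, and all 10 members were found among the 19430 named genes of the count tables. One callus came from a control mouse (Nf1[+/flox], without Postn-cre) and the other from an Nf1Postn littermate (Postn-cre;Nf1[flox/-]). Cre recombinase driven by the promoter of periostin (*Postn*), a matrix protein of the periosteum, removes the floxed *Nf1* allele in the Nf1Postn mouse, whose other allele is already null, and *Nf1* encodes a negative regulator of RAS. Both were female by the study's methods and 8 weeks old by the labels, the distal tibias were collected 10 days after a fracture held by an intramedullary pin, and the pair of calluses was embedded together and cut into section 1 and section 2. The labels call the sections biological replicates, whereas the paper describes a control and an Nf1Postn callus embedded in the same block. Each genotype is therefore read here as 1 mouse, a reading that the labels do not bear out. On it, all intervals cover counting error only and no test between genotypes or between tissue regions was possible.

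WNT proteins are short-range lipid-modified ligands. They bind Frizzled receptors together with LRP co-receptors to stabilize β-catenin, or act through receptors such as ROR2 without β-catenin, and R-spondins raise the response by keeping Frizzled receptors on the cell surface. In the growth plate and in a healing fracture, WNT ligands are known regulators of the passage from cartilage to bone: β-catenin favors osteoblasts and chondrocyte hypertrophy, whereas *Wnt5a* and *Wnt5b* mainly act without β-catenin.

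Expression was read by Visium, in which probe pairs for each gene are captured on spots spaced 100 μm apart and each unique molecular identifier (UMI) is 1 captured probe pair. A spot can hold several cells, so fewer cells of a type and less RNA per cell cannot be told apart. Levels are pooled CPM, the UMIs of a gene per 1000000 UMIs of a group of spots, with exact Poisson 95% intervals. Probe number and efficiency differ between genes, so no gene's level was set against that of another gene. The control callus held 1700 and 1778 spots in sections 1 and 2 and the Nf1Postn callus 1341 and 1556, with medians of 7053 and 5718.5 against 2030 and 3239.8 UMIs per spot. The targeted gene *Nf1* was counted at 87.8 and 79.0 CPM in the control and at 65.6 and 49.6 CPM in the Nf1Postn callus, a log2 ratio of -0.59 (95% interval -0.73 to -0.45). Where its probes lie relative to the deleted exons is not known here, so *Nf1* does not check the labels fully. The calluses differed in tissue: the summed level of 12 cartilage markers, of which none was at 0, was 51857 and 32839 CPM in the control and 5240.6 and 9519.8 CPM in Nf1Postn, and that of 6 muscle markers, none at 0, was 9342.1 and 15109 against 43529 and 75838 CPM.

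Spots were grouped into 14 regions by clustering on 16828 genes, with the WNT genes left out, and a region is named here by its leading genes. Leading genes were ranked over the spots of both calluses together. Region 1 was led by *Acp5*, *Siglec15* and *Mmp9*, genes of bone-resorbing osteoclasts, and held the bone markers *Bglap* and *Dmp1* among its 20 leading genes. Region 2 was led by *Gpnmb*, *Crabp1* and *Ptgfr*, region 4 by *Mmp3*, *Il1rn* and *Rassf5*, and region 7 by *Cadm4*, *Cxcl14* and *Cfd*. Region 8 was led by *Col10a1* and *Ihh*, which mark hypertrophic and prehypertrophic chondrocytes, and *Snorc*. In region 12 the leading genes were *Ucma*, *Cnmd* and *Scrg1*. Regions 8 and 12 are called the cartilage regions, because each had at least 3 of the fixed cartilage markers among its leading genes. Region 10 was led by *Tnnt2*, *Myh3* and *Myh8*, of which the last pair are myosins of regenerating muscle. Region 3 was led by muscle genes (*Myh7*, *Dusp13*, *Ckmt2*), region 9 by hemoglobin genes (*Hbb-bt*, *Hbb-bs*, *Hba-a2*), region 5 by *Hbb-bs*, *Retnla* and *Hba-a2*, region 6 by *Angptl7*, *Cilp2* and *Myoc*, and region 11 by *Igkc*, *Hbb-bs* and *Hba-a2*. Region 13 was led by *2310002L09Rik*, *Padi2* and *Ucp3*, and region 14 by *Rxrg*, *Prg4* and *Hba-a2*. The cartilage regions held 589 control spots and 28 Nf1Postn spots, whereas region 3 held 113 control and 668 Nf1Postn spots.

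**Figure D1:**
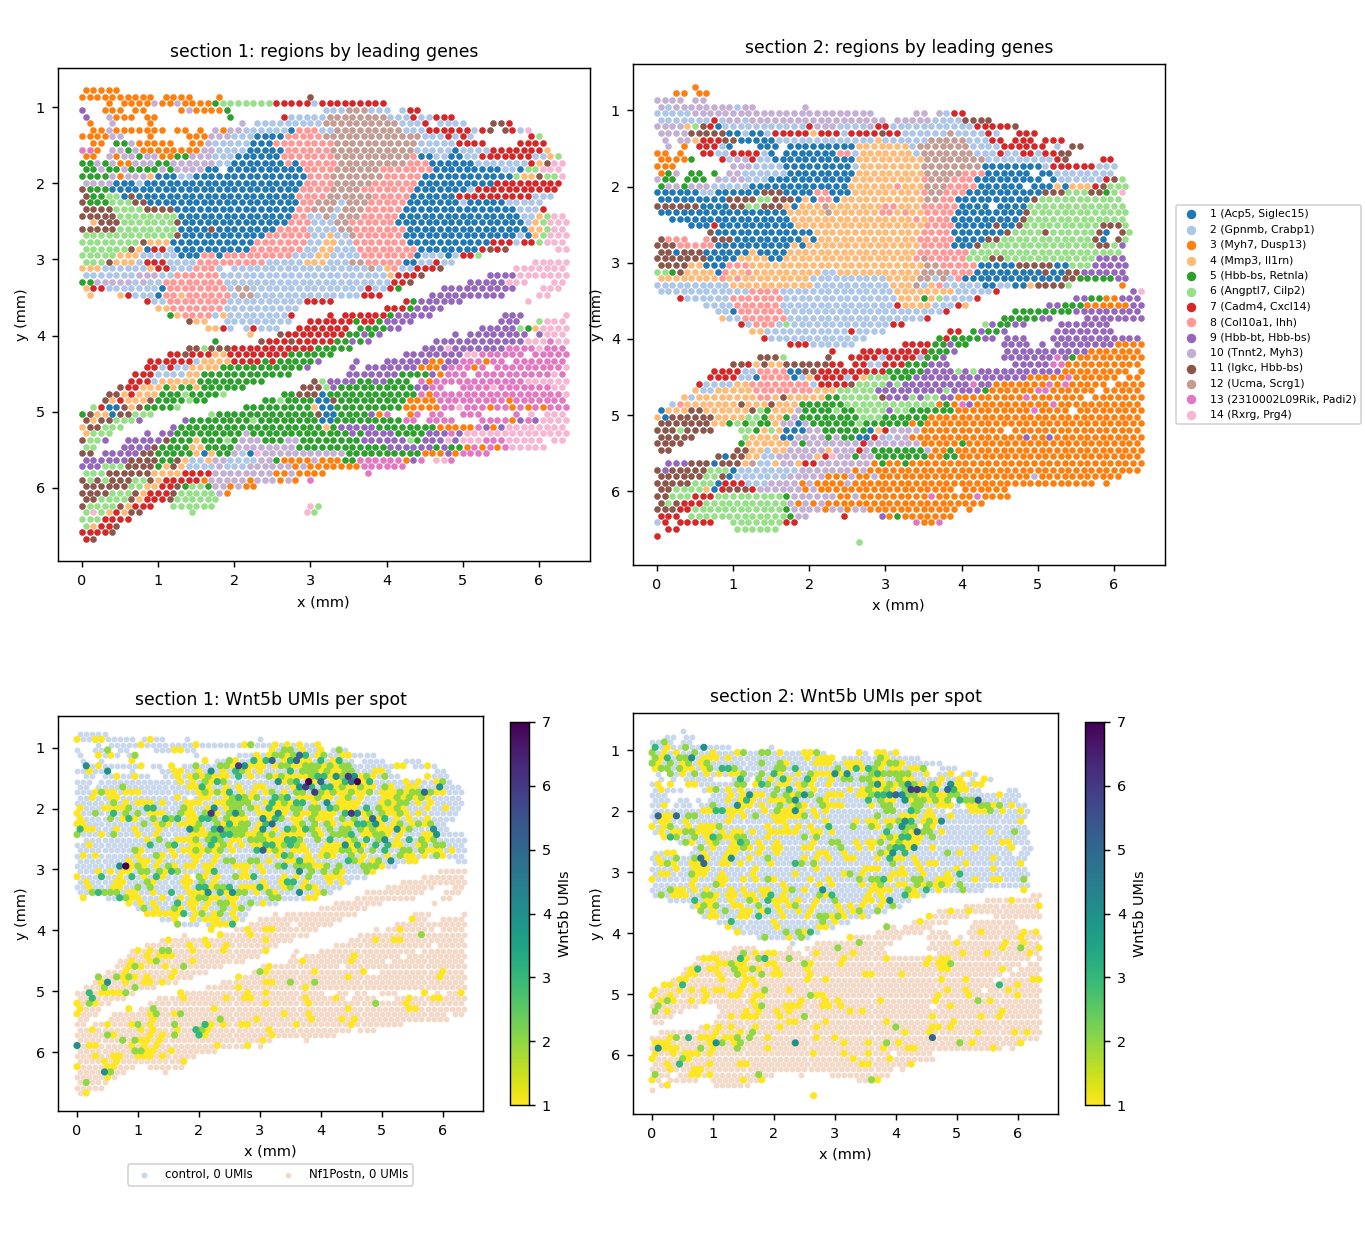
Position of spots in both sections, with x and y in mm. The upper panels color each spot by its region, named by 2 leading genes, and the lower panels by the number of *Wnt5b* UMIs in the spot, with spots at 0 in pale blue (control, upper tissue) or pale orange (Nf1Postn, lower tissue). *Wnt5b* was found in 1583 of 3478 control and 452 of 2897 Nf1Postn spots, and the Nf1Postn spots were shallower.

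*Wnt5b* (ENSMUSG00000030170; chromosome 6, 119409492 to 119521309 in mm39), a ligand known from prehypertrophic chondrocytes of the growth plate, was highest in the *Col10a1* and *Ihh* region of the control callus. There it reached 178 CPM in section 1 (95% interval 155 to 204) and 144 CPM in section 2 (113 to 180). In the osteoclast-gene region 1 it was at 125 and 129 CPM, in the *Ucma* cartilage region 12 at 118 and 109.9 CPM, in region 2 at 84.6 and 72.4 CPM and in the regenerating muscle region 10 at 65.5 and 56.5 CPM. Regions 1, 8 and 12 thus lay above regions 2 and 10 in both sections. Regions 6 and 11, led by *Angptl7* and *Igkc*, ranked between regions 8 and 1 with both sections pooled. They stood at 137 CPM from 37 UMIs and 132 CPM from 52 UMIs. Region 8 exceeded region 10 by 2.83-fold (95% interval 2.21 to 3.67), an interval that does not allow for their choice as the highest and lowest regions. Among the 9 steps down the order of the 10 compared regions, only the step below region 12 had an interval that left out 0. Region 8 lay less than 2-fold above the remaining control spots.

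*Wnt5a* (ENSMUSG00000021994; chromosome 14, 28226707 to 28249406), the closest relative of *Wnt5b*, had another layout. Its level in region 2 was 106 CPM in section 1 and 119 CPM in section 2, in region 7 it was 85.9 and 100.2 CPM, and in the *Ucma* cartilage region 12 it was 37.1 and 39.7 CPM. Region 2 was the highest and region 12 the lowest with both sections pooled, 2.97-fold apart (95% interval 2.44 to 3.65). The interval does not allow for the choice of these regions as the extremes. Region 12 was below the other control spots by a log2 ratio of -1.12 in section 1 and -1.12 in section 2, so *Wnt5a* was at least 2-fold lower there in both. The call rests on how the spots were grouped: with WNT genes kept in the clustering all 205 spots of region 12 fell in a cluster of 337 spots, with ratios of -0.16 and 0.002, and at resolution 1.0 they fell mainly in a pair of clusters with ratios of -0.34 and -0.36, and of -0.47 and -1.22. Correlations were taken over the 20 points given by 10 regions in each section, which share libraries and differ in depth. That of *Wnt5b* was 0.62 with *Wnt10b* and 0.62 with *Wnt7b*, the latter from 113 control UMIs in all. With *Wnt5a* it was -0.24, less negative than with *Wnt2b* (-0.43) or *Wnt16* (-0.42). With *Wnt4* it was 0.09, with *Wnt9a* -0.15, with *Wnt11* -0.22 and with *Rspo3* -0.24.

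*Wnt4* (ENSMUSG00000036856; chromosome 4, 137004800 to 137027038), which promotes chondrocyte hypertrophy in the growth plate, differed most clearly between the cartilage regions. It was at 38.9 and 26.4 CPM in the *Col10a1* region 8 in sections 1 and 2, and at 5.85 and 7.93 CPM in the *Ucma* region 12. Region 1 stood at 29.1 and 20.4 CPM, region 2 at 7.40 and 5.72 CPM and region 7 at 2.68 and 5.78 CPM, the last from 2 and 3 UMIs. Region 8 was above all other control spots by a log2 ratio of 1.31 in section 1 and 1.14 in section 2, and regions 2 and 7 were below them by at least 2-fold in both sections. Region 1, with 170 UMIs of *Wnt4*, had ratios of 1.16 and 0.9948, the second just short of 2-fold. At resolution 1.0 no cluster reached 2-fold above the rest for *Wnt4* in both sections. In muscle-led region 3 of the control callus, where section 2 had 18 spots, so that region 3 was not among the 10 regions compared, *Wnt4* was at 41.5 CPM from 19 UMIs and 64.8 CPM from 5 UMIs.

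*Wnt9a* (ENSMUSG00000000126; chromosome 11, 59197754 to 59224379), a ligand known from forming joints, and *Wnt2b* (ENSMUSG00000027840; chromosome 3, 104852588 to 104869238) were low in the *Ucma* cartilage region 12. *Wnt9a* was at 15.7 and 20.02 CPM in region 2 and at 20.1 and 19.2 CPM in region 10, but at 3.90 and 3.40 CPM in region 12 and at 5.98 and 4.92 CPM in region 1. It was at least 2-fold lower in regions 1 and 12 than in the other control spots of each section. *Wnt2b* was at 2.93 and 4.53 CPM in region 12, also at least 2-fold below the rest. In the other cartilage region, region 8, neither was called: *Wnt2b* was at 9.49 CPM against 11.3 CPM in the rest (log2 ratio -0.25, 95% interval -1.08 to 0.47), and *Wnt9a* had ratios of -0.16 in section 1 and -2.78 in section 2, the latter from 1 UMI. In region 7 *Wnt2b* was at 5.37 CPM in section 1, from 4 UMIs, and 57.8 CPM in section 2, from 30 UMIs, so that its high pooled level there of 26.9 CPM came from section 2.

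In all, 1 of the 10 members (*Wnt4*) was at least 2-fold higher in 1 or more control regions in both sections, where 17.6% of 12562 genes with at least 20 UMIs per section were, and 4 members (*Wnt2b*, *Wnt4*, *Wnt5a* and *Wnt9a*) were at least 2-fold lower in 1 or more regions, where 25.8% of genes were. The first count is a smaller share than that of all genes and the second a larger one, and 10 members are too few to read more from either. Per region, the share of genes at least 2-fold higher was 0.820% in region 8, and the share at least 2-fold lower was 14.9% in region 12, 5.17% in region 1, 2.05% in region 2 and 1.6001% in region 7.

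**Figure D2:**
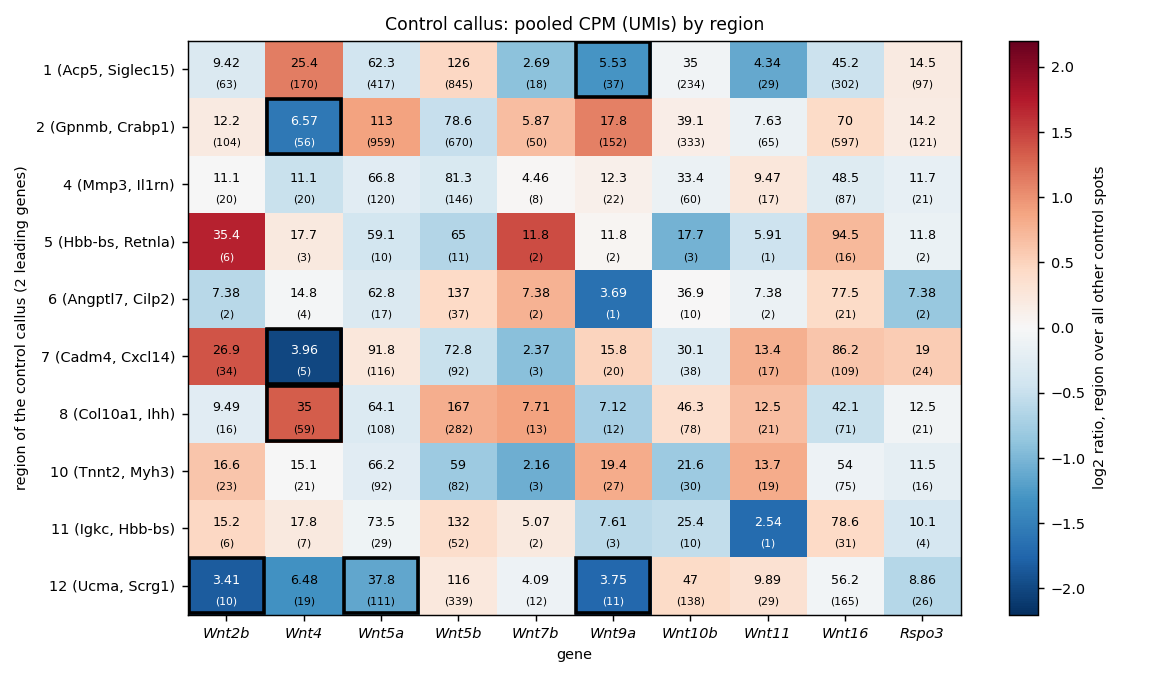
Pooled CPM of each member in 10 regions of the control callus over both sections, with UMIs in parentheses. Color is the log2 ratio of the region to all other control spots, and black frames mark differences of at least 2-fold in both sections. *Wnt4* in region 8 is the only framed value above the rest, and *Wnt4* in region 1 fell just short of 2-fold in section 2. The framed low values are those of *Wnt4* in regions 2 and 7, *Wnt9a* in regions 1 and 12, and *Wnt2b* and *Wnt5a* in region 12.

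None of the other members was at least 2-fold higher or lower in any control region in both sections. *Wnt10b* (ENSMUSG00000022996; chromosome 15, 98668593 to 98676032), a β-catenin ligand that favors osteoblasts over fat cells, was at 47.8 and 45.3 CPM in region 12, 50.1 and 37.8 CPM in region 8 and 27.7 and 19.2 CPM in region 10. *Wnt16* (ENSMUSG00000029671; chromosome 6, 22288226 to 22298522), made by osteoblasts and known to restrain osteoclasts, was at 81.9 and 92.5 CPM in region 7 and 47.6 and 30.2 CPM in region 8. *Wnt11* (ENSMUSG00000015957; chromosome 7, 98484319 to 98504403) was at 3.12 and 5.98 CPM in region 1 and at 15.1 and 13.1 CPM in region 10. *Rspo3* (ENSMUSG00000019880; chromosome 10, 29328412 to 29411864) was at 20.1 and 17.3 CPM in region 7 and at 8.78 and 9.06 CPM in region 12. *Wnt7b* (ENSMUSG00000022382; chromosome 15, 85419638 to 85466675), which raises osteoblast number, had 113 control UMIs in all, and its highest region was not the same in the 2 sections. The highest and lowest regions were 5.39-fold apart for *Wnt11* and 5.47-fold for *Wnt7b*, with 1 and 3 UMIs in the lowest region and intervals that held 1. For *Wnt2b*, *Wnt7b*, *Wnt9a*, *Wnt10b*, *Wnt11* and *Rspo3*, none of the 9 steps between neighboring regions in the order of levels had an interval that left out 0, and for *Wnt16* that below region 2 did.

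Distance from the cartilage regions, between spot centers, gave a second view of the control callus. *Wnt5b* was at 140 and 122 CPM within the cartilage regions, 104 and 100.3 CPM up to 300 μm from them, 99.2 and 85.9 CPM at 300 to 600 μm, 96.4 and 75.3 CPM at 600 to 1000 μm, and 90.7 and 82.6 CPM beyond 1000 μm. *Wnt10b* was at 48.6 and 42.5, 44.6 and 38.0, 38.5 and 33.4, 32.3 and 23.3, and 25.03 and 23.5 CPM in the same bins, the first value of each pair being section 1. The cartilage level of both genes was the highest of the 5 bins in each section, and *Wnt10b* did not rise in any step of section 1. *Wnt5a* was lowest in cartilage, at 48.01 and 46.03 CPM, and was at 89.6 and 83.5 CPM up to 300 μm away. From there it fell to 66.2 CPM beyond 1000 μm in section 1, but stood at 88.6, 94.9 and 85.8 CPM in the farther bins of section 2.

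Against spots beyond 600 μm, the cartilage regions had log2 ratios of 0.65 for *Wnt5b* (95% interval 0.49 to 0.81), 0.85 for *Wnt10b* (0.57 to 1.14) and -0.77 for *Wnt5a* (-1.001 to -0.55), and each had the same sign in both sections. *Wnt9a*, at 4.98 against 14.5 CPM, had log2 ratios of -0.86 in section 1 and -2.66 in section 2, the latter from 4 UMIs in cartilage. *Wnt2b* had a ratio of -1.20 (-1.88 to -0.57), *Rspo3* of -0.54 (-1.06 to -0.03) and *Wnt7b* of 1.22 (0.28 to 2.18). These ratios also kept their sign in both sections, with 25 UMIs of *Wnt7b* in cartilage, of which 9 were in section 2. *Wnt16* was nearly level in section 1, at -0.01, and lower in cartilage in section 2, at -0.99, where spots beyond 1000 μm reached 109.9 CPM against 56.8 CPM in section 1. None of the 10 members was at least 2-fold higher or lower in both sections, where 2.71% of all genes were higher and 13.7% lower.

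**Figure D3:**
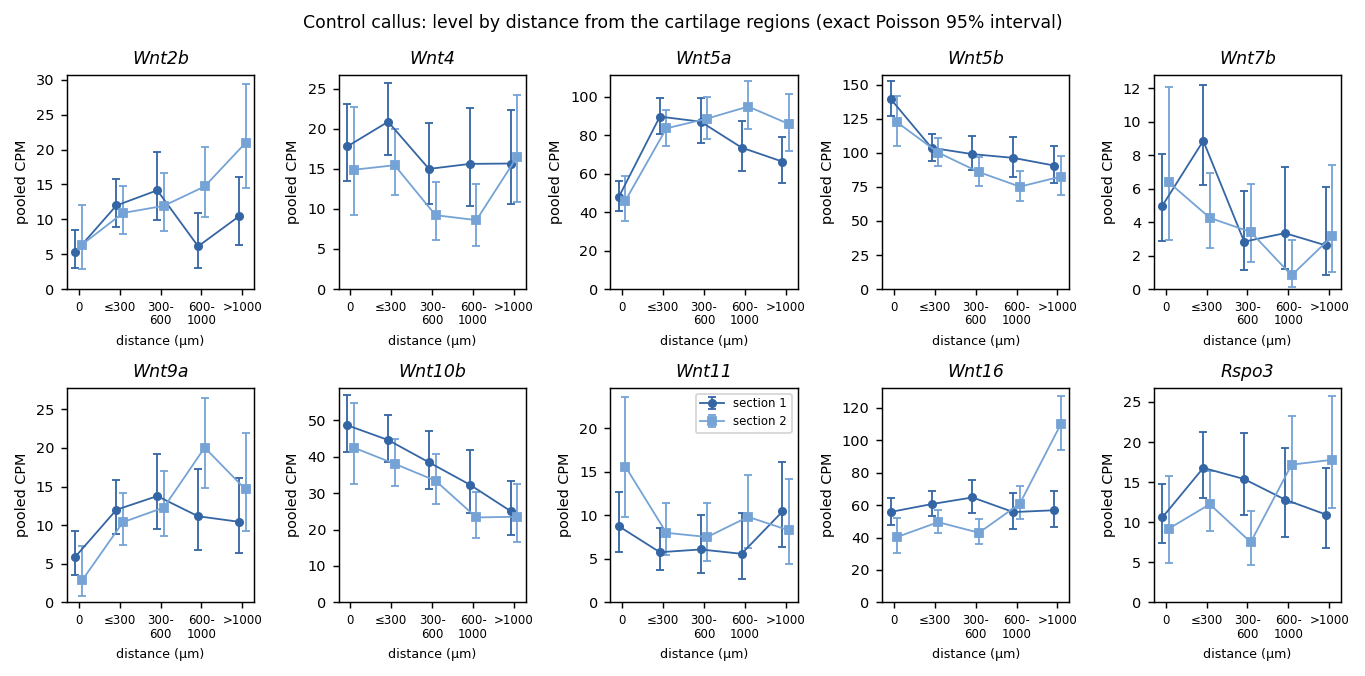
Pooled CPM of each member in the control callus by distance in μm from the nearest spot of the cartilage regions, with 0 for spots inside them, for section 1 (circles) and section 2 (squares), with exact Poisson 95% intervals. *Wnt5b* and *Wnt10b* are highest inside the cartilage regions in both sections, *Wnt2b*, *Wnt5a* and *Wnt9a* are lowest there, and *Wnt16* beyond 1000 μm differs between sections.

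Position relative to the tissue edge separated the members further. In the control callus *Wnt9a* was at 20.7 and 17.9 CPM within 150 μm of an empty position, 12.8 and 15.1 CPM at 150 to 400 μm and 6.14 and 7.90 CPM deeper than 400 μm, a log2 ratio of edge over depth of 1.48 (95% interval 0.99 to 1.95). *Wnt2b* was also higher at the edge, at 16.7 and 16.8 CPM against 7.94 and 9.82 CPM deeper than 400 μm, whereas *Wnt5b* was lower there, at 72.4 and 72.0 CPM against 131 and 91.3 CPM. In the Nf1Postn callus *Wnt2b* had an edge ratio of 1.24 (0.28 to 2.23), *Wnt9a* of 0.41 (-0.38 to 1.18) and *Wnt5b* of 0.01 (-0.40 to 0.41). *Wnt11* had a ratio of -1.23 (-2.28 to -0.29) there, below 0 in both sections, with 12 UMIs at the edge. In the control its ratio was 0.38 (-0.20 to 0.94). The difference of these ratios between the calluses was not tested.

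Between the whole calluses, 4 of 10 members were lower in Nf1Postn in both sections, as were 37.1% of 13410 genes, and none of them by 2-fold in both. In the other direction 1 member was higher in both sections, as were 33.2% of genes. *Wnt5b* was at 109 CPM (95% interval 103 to 114) and 92.1 CPM (86.7 to 97.6) in the control, and at 68.2 CPM (59.7 to 77.4) and 55.3 CPM (49.5 to 61.6) in Nf1Postn, so that the intervals of the calluses did not overlap. The pooled log2 ratio was -0.75 (-0.88 to -0.62). *Wnt10b* was at 40.0 and 32.6 CPM against 24.6 and 17.7 CPM, where the values did not overlap but the intervals of control section 2 and Nf1Postn section 1 did, with a log2 ratio of -0.85 (-1.09 to -0.63). *Wnt16* was at 59.1 and 57.0 CPM against 52.9 and 35.8 CPM, where the intervals of section 1 overlapped, and *Rspo3* at 13.7 and 12.5 CPM against 11.3 and 5.68 CPM, where they also did. *Wnt11* was the member above 0 in both sections, at 7.15 and 9.16 CPM in the control and 11.6 and 11.5 CPM in Nf1Postn, a log2 ratio of 0.51 (0.16 to 0.85) that turned to -0.13 with the mean of log2(CPM + 1) over spots.

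The sections disagreed for the rest. *Wnt5a* was at 73.9 and 83.0 CPM in the control and 77.4 and 55.1 CPM in Nf1Postn, so its log2 ratio was 0.07 in section 1 and -0.59 in section 2. *Wnt4*, at 17.6 and 12.6 CPM against 14.4 and 20.4 CPM, had ratios of -0.29 and 0.69. *Wnt2b* and *Wnt9a* were higher in Nf1Postn in section 1 and lower in section 2, and *Wnt7b* was at 5.24 and 3.46 CPM against 5.199 and 4.34 CPM. Of the 10 members 0 were at least 2-fold lower, where 1.5% of 13410 genes were, and 0 at least 2-fold higher, where 5.79% were. The median log2 ratio was -0.15 over the members and -0.05 over all genes tested.

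**Figure D4:**
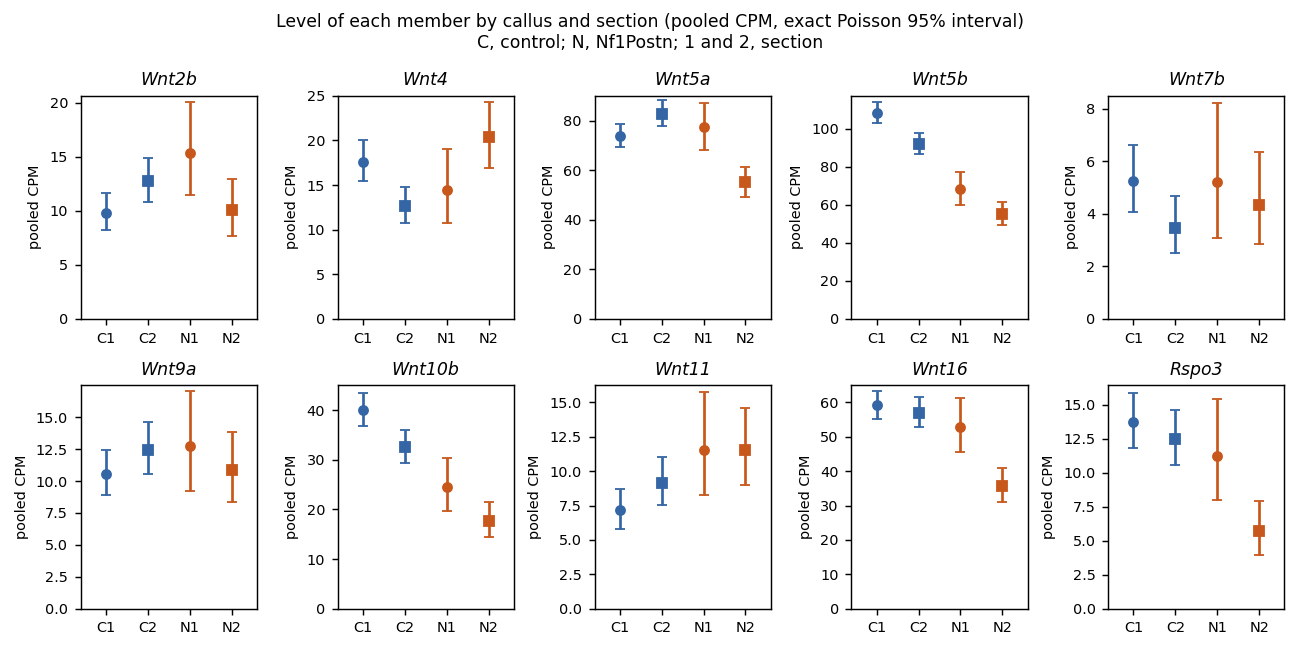
Pooled CPM of each member in sections 1 and 2 of the control (C1, C2) and Nf1Postn (N1, N2) callus with exact Poisson 95% intervals. *Wnt5b* and *Wnt10b* are lower in both Nf1Postn sections than in both control sections, without overlap of the intervals for *Wnt5b*.

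Because the calluses held different tissue, control levels, pooled over both sections, were also weighted by the share of Nf1Postn UMIs in each region, which used 91.1% and 99.5% of these UMIs. At that mix the control would give 27.7 and 19.1 CPM of *Wnt10b*, against 26.3 and 17.8 CPM measured in those Nf1Postn regions, so that the log2 ratio moved from -0.71 and -0.88 to -0.07 and -0.10. In section 1 region 5 held 323 Nf1Postn spots, and its control level of 17.7 CPM (3.65 to 51.8) rests on 3 UMIs of *Wnt10b* in 59 spots. In section 2 region 3 carried 40.9% of the weight, on 2 control UMIs of *Wnt10b*. Over the interval of region 3 alone that weighted control ran from 17.7 to 23.1 CPM. For *Wnt5b* the weighted control was 84.9 and 74.5 CPM against 72.3 and 55.4 CPM measured, with ratios of -0.23 and -0.43. *Wnt4* moved the other way: the weighted control was 23.8 and 30.7 CPM against 14.6 and 20.1 CPM measured, with ratios of -0.71 and -0.61. Region 9, with 210 Nf1Postn spots in section 1, entered at a control level of 132 CPM (27.2 to 386). That level rests on 3 UMIs in 20 spots, so the ratio of section 1 depends in part on these few counts. In section 2 18.3 of the 30.7 CPM came from region 3, whose control level of 44.8 CPM (28.7 to 66.7) rests on 24 UMIs in 113 spots, and over that interval alone the weighted control ran from 24.1 to 39.7 CPM. *Wnt16* was below the weighted control in both sections, at -0.33 and -0.52, and *Wnt11* had ratios of 0.27 and 0.20. For *Wnt11* the control level rests on 1 UMI in region 5 and 6 UMIs in region 3. Over the interval of region 3 alone its weighted control in section 2 ran from 7.16 to 15.4 CPM. That range held the 11.6 CPM measured.

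Shares of spots with a UMI followed depth. *Wnt5b* was found in 45.5% of control spots (exact binomial 95% interval 43.8 to 47.2) and 15.6% of Nf1Postn spots (14.3 to 17.0), but in 9.98% and 6.31% after every spot was thinned to 1000 UMIs, which left out 128 control and 328 Nf1Postn spots. In the hemoglobin-led region 9 of the Nf1Postn callus, with a median of 1082.5 UMIs, the share was 8.46%, and 7.18% after thinning. After thinning, the share in the Nf1Postn callus was at or below that of region 9 for 6 members and the control share for 3, so shares were not read as expression at this depth. Region 9 also held bone and muscle markers and is not a tissue free of WNT ligands.

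Within a region, levels of the genotypes were compared where each had at least 20 spots and both sections held both, which left 67 pairs of a member and a region with at least 20 UMIs. Of these, 5 were at least 2-fold lower in Nf1Postn in both sections, where 1.33% of all gene and region pairs were, and 0 were higher, where 1.04% were. In the regenerating muscle region 10, 4 of 9 members that passed were lower, where 1.67% of genes were. With 168 control and 173 Nf1Postn spots, and medians of 7566.2 and 7226.5 UMIs per spot, depth was similar there.

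*Wnt5b* in region 10 was at 65.5 CPM (42.8 to 95.9) and 56.5 CPM (42.6 to 73.3) in the control and at 14.3 CPM (5.25 to 31.1) and 18.6 CPM (10.8 to 29.8) in Nf1Postn, a pooled log2 ratio of -1.78 (-2.51 to -1.09). *Wnt16* was at 68.0 and 48.4 CPM against 26.2 and 13.1 CPM, a ratio of -1.65 (-2.39 to -0.96). For both genes the Nf1Postn values lay below both control values. *Wnt9a*, at 20.1 and 19.2 CPM against 7.15 and 8.75 CPM, and *Wnt2b*, with 23 UMIs in the control and 8 in Nf1Postn, had ratios of -1.24 (-2.40 to -0.18) and -1.46 (-2.84 to -0.25). *Wnt4*, *Wnt5a*, *Wnt10b*, *Wnt11* and *Rspo3* did not reach 2-fold in both sections of region 10. At resolution 1.0 *Wnt9a* and *Wnt16* were not called in the cluster with most spots of region 10. *Wnt5a* had a ratio of -0.36 (-0.83 to 0.11) and *Wnt4* of 0.42 (-0.46 to 1.32).

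Other markers moved with genotype inside region 10. The summed level of the 12 cartilage markers was 5977.5 and 5573.8 CPM in the control and 1449.6 and 1999.9 CPM in Nf1Postn, with *Matn1* at 0 in both Nf1Postn sections and *Ucma* at 0 in section 2. The summed level of the 6 muscle markers was 43104 and 59535 CPM in the control and 64796 and 74582 CPM in Nf1Postn, with none at 0, and that of 8 bone markers was 26179 and 21842 against 14019 and 14486 CPM, with *Phex* at 0 in Nf1Postn section 1. The 4 tendon markers, none at 0, summed to 844 and 779 against 257 and 562 CPM. Regenerating muscle markers summed to 214 and 397 against 486 and 674 CPM and marrow and blood markers to 267 and 284 against 1111 and 747 CPM, where *Mpo* was at 0 in both control sections and *Elane* in section 1. Adipose markers summed to 549 and 41.3 against 23.8 and 9.85 CPM, with *Cidec* at 0 in both Nf1Postn sections and *Plin1* in section 2. The part of these tissues in the lower ligand levels was not tested.

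The remaining lower pair was *Wnt10b* in region 7. It was at 33.6 and 25.04 CPM in the control and at 16.3 CPM from 9 UMIs and 0 UMIs in Nf1Postn sections 1 and 2, where 1 of 8 members that passed was lower and 1.1% of genes were. The section 2 value is a bound, computed with 3 counts in place of 0, and pooled over sections the log2 ratio was -1.78 (-3.01 to -0.70). The call was lost at resolution 1.0, where the cluster with 286 spots of region 7 had a ratio of -1.05 in section 1 and 0 UMIs in 32 Nf1Postn spots against 14 control UMIs in section 2. Cartilage markers in region 7 summed to 9280.3 and 7942 CPM in the control and 3128.3 and 3437.8 CPM in Nf1Postn, with *Matn1* at 0 in Nf1Postn section 2, tendon markers to 915 and 1271.3 against 635 and 633 CPM, and osteoclast markers to 3471.1 and 3292 against 2342.1 and 1637 CPM, and their part was not tested. *Wnt16* in region 4, led by *Mmp3*, was higher in Nf1Postn at 132 and 83.8 CPM against 69.6 and 45.6 CPM, log2 ratios of 0.92 and 0.88 that stayed under 2-fold in each section.

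**Figure D5:**
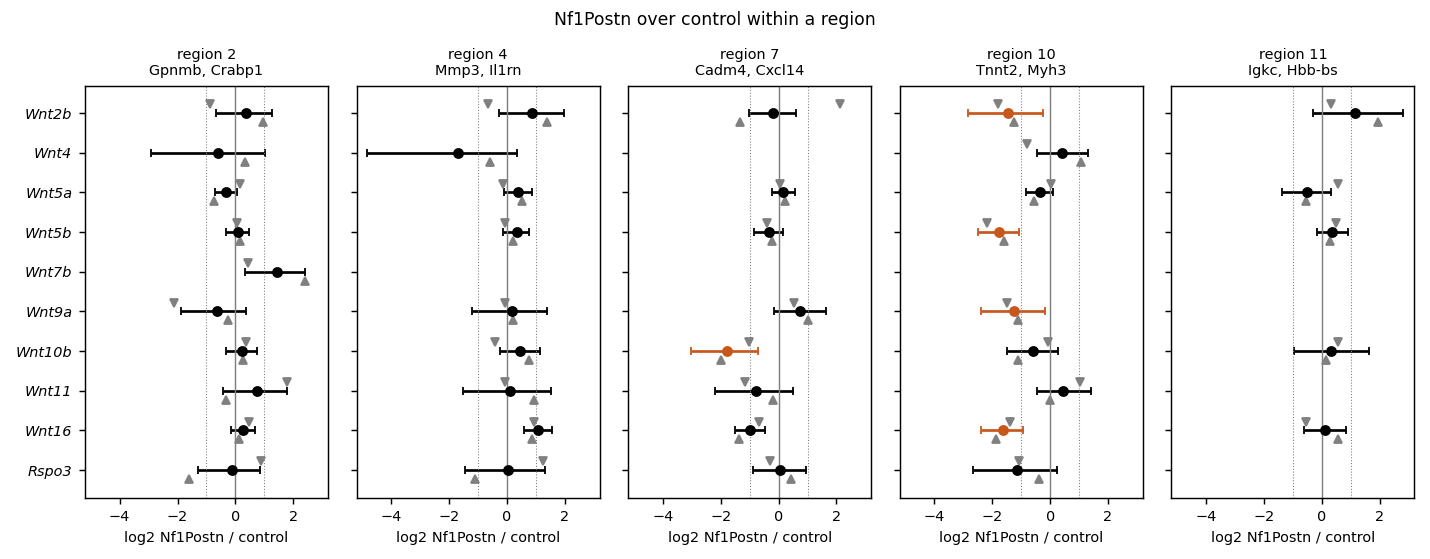
Log2 ratio of Nf1Postn over control within 5 regions for members with at least 20 UMIs. Circles are both sections pooled with the 95% interval, downward triangles section 1, upward triangles section 2, and orange marks ratios at least 2-fold lower in both sections. *Wnt2b*, *Wnt5b*, *Wnt9a* and *Wnt16* in region 10 and *Wnt10b* in region 7 are orange.

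The *Col10a1* region 8 had 27 Nf1Postn spots, all in section 2, so no comparison in both sections could be made. There *Wnt16* was at 176 CPM (116 to 257) from 27 UMIs, against 30.2 CPM (17.3 to 49.1) in section 2 of the control, and *Wnt10b* at 150 CPM (95.3 to 226) against 37.8 CPM (23.1 to 58.3). *Wnt5b*, at 131 CPM (79.8 to 202), and *Wnt4*, at 32.7 CPM (10.6 to 76.3), had intervals that overlapped those of the control. The cartilage marker sum was 164714 CPM in this patch and 170535 CPM in the control of the same section, the hypertrophic marker sum 1477 against 2457.3 CPM and the osteoclast marker sum 1143.7, with *Siglec15* at 0, against 6614.6 CPM, and their part was not tested.

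Other genes of the pathway were read from a list of 69 genes, of which 68 were analysed here, and 56 had at least 20 UMIs in each section. Over the whole calluses 5 of the 56 were at least 2-fold lower in Nf1Postn in both sections, where 1.5% of 13410 genes were, and 1 was higher, where 5.79% were. For these genes control levels were not weighted by the Nf1Postn region mix, so the part of the unlike tissue of the calluses was not tested. None of the 2 secretion genes was called. *Wls*, the carrier that brings WNT proteins to the cell surface, was at 126 and 140 CPM in the control and 130 and 94.1 CPM in Nf1Postn, and *Porcn*, the enzyme that attaches their lipid, at 34.9 and 33.1 against 26.3 and 19.6 CPM. Of the 3 other ligands that passed, *Rspo2*, an R-spondin like *Rspo3*, was lower, at 11.9 and 10.3 against 5.78 and 2.34 CPM. *Rspo1* had ratios of -0.9998 and -1.14, the first just short of 2-fold, and *Wnt10a* differed in direction between sections.

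Of 15 receptors that passed, 0 were lower and *Fzd10* was higher, from 11 and 18 control UMIs against 11 and 34 in Nf1Postn. The most counted receptors were *Fzd2*, at 207 and 204 against 159 and 103 CPM, *Lrp6*, at 179 and 185 against 151 and 126 CPM, and *Fzd1*, at 157 and 162 against 162 and 113 CPM. Among the R-spondin receptors and their ligases, 1 of 4 was lower, the receptor *Lgr6*, at 13.8 and 11.1 against 5.49 and 4.18 CPM, and *Lgr4* and *Znrf3* were not called.

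Secreted inhibitors held 3 of the 5 lower genes among 12 that passed, beside the 1.5% of all genes that were lower. *Sfrp2*, which binds WNT ligands outside the cell, was at 817 and 774 CPM in the control and 243 and 115 CPM in Nf1Postn. *Frzb*, a relative of *Sfrp2* found in cartilage, was at 199 and 110.2 against 42.5 and 32.6 CPM, and *Wif1* at 73.1 and 69.8 against 31.2 and 24.2 CPM. *Dkk3* and *Sost*, the latter an osteocyte inhibitor, had ratios of -0.36 and -1.36, and of -0.73 and -0.99. The median log2 ratio of the inhibitors was -0.98 and 10 of 12 were below 0 in both sections, as were 37.1% of all genes tested. This direction was not particular to the inhibitors. Of the 56 pathway genes 35 were below 0 in both sections and 9 above, with a median of -0.47. Among them 8 of 15 receptors and 8 of 12 intracellular genes were below 0 in both sections. In the control callus *Frzb* was at 539 CPM in region 12 and 356 CPM in region 8, and *Sfrp2* at 1301 CPM in region 2, which is also where *Wnt5a* was highest.

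None of 12 intracellular genes and none of 8 targets was called in either direction. *Csnk1a1*, a kinase of the β-catenin destruction complex, was at 266 and 290 against 271 and 274 CPM, *Dvl3* at 259 and 240 against 168 and 132 CPM, and *Ctnnb1*, which encodes β-catenin, at 234 and 211 against 158 and 111 CPM. Of the targets, *Ccnd1* was at 131 and 105 against 111 and 71.9 CPM, *Ccn5* at 127 and 116 against 130 and 75.03 CPM and *Tnfrsf19* at 68.1 and 84.5 against 74.8 and 48.8 CPM. *Axin2*, a feedback target of β-catenin, had log2 ratios of 0.34 and 0.30. It was the only 1 of the 8 targets above 0 in both sections, whereas 4 were below 0 in both. The median log2 ratio of the targets was -0.42.

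Genes with the control layout most like a member's were sought over the same 20 points of region and section, by Pearson's r among about 7531 genes with at least 500 control UMIs. *Wnt5b* was most like *Rai1* (r = 0.91), *Loxl4* (0.91) and *Hnrnpab* (0.88), and *Wnt5a* most like *Trim3* (0.85), *Plat* (0.83) and *Flcn* (0.82). *Wnt9a* was most like *Cd4* (0.92), *Phlda3* (0.92) and *Map1b* (0.90), and *Wnt10b* most like *Fbxw8* (0.90), *Sec61a1* (0.87) and *Cnpy2* (0.86). *Wnt4* was most like *Stap2* (0.80), *Bcan* (0.78) and *Mef2c* (0.77), and *Wnt16* most like *Sfxn2* (0.86), *Irak3* (0.84) and *Glrx2* (0.83). For *Rspo3* these were *Bag5* (0.91), *Rhno1* (0.90) and *Sipa1l3* (0.90), for *Wnt2b* *Dapk1* (0.82), *Dpep1* (0.78) and *Gtf3c2* (0.78), and for *Wnt11* *Usp10* (0.82), *Zscan29* (0.81) and *Bckdha* (0.76). The points share libraries and include regions with few UMIs of a member, and with so many genes searched high values arise by choice alone.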

How the data were processed

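Formalin-fixed tibias were decalcified in 14% EDTA for 3 days, and Visium libraries of 2 sections were aligned to mm39 with Space Ranger 1.3.0 per the submitters' processing notes and exported from Partek Flow. The tables deposited by the authors hold raw UMIs of every gene in every spot, not normalized, and were treated as estimated counts, because entries that join several Ensembl IDs hold means. The entry without a gene name, with 11.6 and 6.8 UMIs (6.81e-05% and 3.76e-05%), was left out. All spots under tissue were used. The 5 spots without a genotype, which the authors' deposited labels give, stayed out of comparisons. The sections share 2711 barcodes, which are position codes of the slides.

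Pooled CPM carry exact Poisson and log2 ratios exact conditional binomial 95% intervals. A difference was called at 2-fold or more in both sections, among genes with at least 20 UMIs per section. Within regions the limit was lower, at 20 UMIs in the region over both sections and genotypes together. A group at 0 was given 3 counts, as a bound. Regions were found on log2(CPM + 1), centered per section, with 20 principal components, 15 neighbors and the Leiden method at resolution 0.5 (leidenalg 0.10.2). Cartilage regions had at least 3 cartilage markers among their 20 leading genes. The ratios, intervals and calls were run on simulated Poisson counts at the depth of the whole calluses. That checks the code only, since the simulation had no spread beyond counting error and no regions. The members, gene lists, tests and alternatives were chosen with earlier results of these data known. All members are named, as are the 3 most counted genes of each list, any list gene with 200 UMIs and 4-fold in both sections, the 3 genes most like a member and the 3 leading genes of a region. *Frzb*, *Wif1*, *Fzd10* and *Axin2* were named after their values were seen. Alternatives were other resolutions, WNT genes kept in the clustering, TMM factors (edgeR 4.0.16, R 4.3.3), median of ratios size factors, mean log2(CPM + 1), spots with at least 1000 UMIs, no filter, the Nf1Postn region mix and single sections.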

Additional observations from a re-analysis of the deposited data

Results flagged for a closer look

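Log2 ratios of Nf1Postn over control were compared among regions where at least 5 UMIs of a member were expected in each section and genotype. There 5 members were above 0 in both sections of 1 region and below 0 in both sections of another, however small the ratio. The difference between regions was not tested. Without that demand they were 8, with *Wnt2b*, *Wnt5a* and *Rspo3* added. Of the 67 pairs of a member and a region that passed, 17 were below 0 in both sections and 16 above. The share of all genes that change sign in this way is not given, so neither count is read as a trait of the members. *Wnt5b* had log2 ratios of 0.085 in region 2 and 0.37 in region 11, but -0.34 in region 7 and -1.78 in region 10. *Wnt16* was at 0.28 in region 2 and 1.08 in region 4, but -0.98 in region 7 and -1.65 in region 10. Among regions with fewer UMIs it was at 1.41 in region 1, -2.07 in region 3 and -0.88 in region 5. These ratios pool the sections without pairing them. Within sections 1 and 2, *Wnt16* had ratios of 0.92 and 0.88 in region 4 and of -0.91 and -1.07 in region 3. Region 3 held 95 and 18 control spots but 70 and 598 Nf1Postn spots. *Wnt10b* was at 0.24 in region 2, but -1.78 in region 7 and -0.60 in region 10, and with fewer UMIs at 0.67 in region 1, 0.21 in region 5 and 0.31 in region 11. *Wnt9a* was at 0.73 in region 7 and -1.24 in region 10, and *Wnt11* at -0.79 in region 7 and 0.45 in region 10, where its section 2 ratio was within 0.01 of 0.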

How the results depend on the processing

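No paired analysis was possible because each genotype was read as 1 mouse, and no test was run. With 1 section left out, the members at least 2-fold lower in Nf1Postn numbered 0 to 1, and the pathway genes 7 to 15 lower and 1 to 5 higher. By region, 4 to 6 members were higher and 6 to 7 lower. In the cartilage regions 0 to 1 were higher and 0 to 2 lower, and within regions 9 to 15 pairs were lower and 4 to 9 higher. Shares of all genes are not given for single sections or for the other alternatives below. The counts of members and pathway genes under them therefore cannot be set against a background. In single sections the log2 ratio of *Wnt5a* ran from -0.59 to 0.067, so that it turned in section 1. The mean of log2(CPM + 1) over spots, which falls with depth, gave 3 members and 19 pathway genes lower, 0 pathway genes higher, 4 members higher by region and -0.13 for *Wnt11*. With TMM factors 10 pathway genes were lower, and without the filter 3 were higher. Resolution 1.0 gave 2 members higher by region (*Wnt7b* and *Wnt9a*, not *Wnt4*) and 2 lower in cartilage. Resolution 0.3 gave 1 lower in cartilage and 9 pairs lower within regions, among them *Wnt2b*, *Wnt5b*, *Wnt9a* and *Wnt16* in a cluster that shares 339 of its 342 spots with region 10. At resolution 1.0, *Wnt2b* and *Wnt5b* but not *Wnt9a* or *Wnt16* were lower in the cluster with 283 spots of region 10. WNT genes kept in the clustering gave 2 members higher by region, *Wnt4* and *Wnt9a*. Among members lower by region, *Wnt5a* was lost at resolution 1.0, where *Wnt7b* was gained, and with WNT genes kept. *Wnt9a* and *Wnt16* in region 10 and *Wnt10b* in region 7 were lost at resolution 1.0, where *Wnt4* in 2 clusters and *Wnt5b* in a second one were gained. The median of all genes lay at -0.18 with TMM factors, -0.15 with median of ratios factors and -0.46 with the mean of logs, against -0.03 for the mean of the section ratios with totals as library sizes (-0.05 with UMIs pooled). All other counts stayed within 1.5 times of those reported, which does not say that the genes were the same. The causes were not tested. Depth limits the Nf1Postn callus most, where *Wnt7b* had 44 UMIs in all.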
